A study of Mus musculus with 12 samples.

Results

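Interleukin-6 (IL-6) signalling in the liver was followed through 10 genes chosen by name: the receptor chains Il6ra, Il6st, Lifr and Osmr, the kinase gene Jak1, the transcription factor gene Stat3, its feedback inhibitor Socs3, and the C/EBP transcription factor genes Cebpa, Cebpb and Cebpd. They are 10 of the 56923 gene IDs counted in bulk RNA sequencing of whole mouse liver, and all 10 passed the filter on low counts that left 16839 genes for testing. The 12 mice were wild-type (WT) C57BL/6J animals, 6 weeks old at the start, and every one of them received carbon tetrachloride (CCl4), a liver toxin whose repeated use scars the tissue. It was injected into the abdomen 2 times a week for 6 weeks, 200 µL at 7.5% in an olive oil vehicle per injection. Control mice (3) had this injury with no curcumin. The low, medium and high groups (3 mice each) also had curcumin, the yellow polyphenol of turmeric, by gavage every day for 2 weeks at 25, 50 and 100 mg/kg. No liver without CCl4 was analysed here, the labels do not say whether control mice had a gavage without curcumin, and with 3 mice to a cage the cage and the group may coincide.

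IL-6 binds its receptor chain, encoded by Il6ra, and the pair recruits gp130, the shared signalling chain encoded by Il6st. The kinase JAK1 then phosphorylates STAT3, which enters the nucleus and switches on acute phase genes in hepatocytes and also SOCS3, which binds gp130 and the kinases and stops the signal. C/EBPβ and C/EBPδ are induced in the acute phase response and activate its genes, while C/EBPα maintains the genes of hepatocyte metabolism. LIF and oncostatin M use gp130 together with LIFR or OSMR.

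Livers of curcumin-treated mice held more Il6ra and Cebpd transcript and less Socs3 transcript than livers given CCl4 alone. With the 3 doses averaged, the log2 fold change against control was 1.34 ± 0.28 (SE) for Il6ra, 0.79 ± 0.21 for Cebpd and -1.09 ± 0.33 for Socs3. None of these passed edgeR's quasi-likelihood test after Benjamini-Hochberg adjustment over all genes, with adjusted p = 0.235, 0.290 and 0.324 in that order. The signal chain Il6st and the hepatocyte factor Cebpa lay close to control at all doses. The same test called 0 of 16839 genes in each of the 6 comparisons made (each dose, the doses averaged, the slope on dose and the difference among the doses), so 0% of genes passed. At an unadjusted p under 0.05 it listed 1008 genes at 25 mg/kg, 940 at 50 mg/kg and 2152 at 100 mg/kg, 1577 for the doses averaged, 1853 for the slope and 614 among the doses. DESeq2 called 42, 89 and 172 genes at the 3 doses in rising order, 165 for the doses averaged, 64 for the slope and 16 among the doses. The limma test with voom library weights called 0, 35 and 256 genes at the 3 doses, 32 for the doses averaged, 0 for the slope and 12 among the doses.

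Library totals lay between 36015134 and 70376474 counts, at which 3 counts are worth 0.0426 to 0.0833 CPM (counts scaled to a common library size). The share of counts on mitochondrially encoded genes was lowest in high replicate 1 (30.3%) and highest in high replicate 2 (64.7%), and it was 58.6% to 64.2% in the control livers. The 4 libraries with the lowest mitochondrial shares (high replicates 1 and 3, low replicate 3 and medium replicate 1) were also those with the highest summed level of 10 hepatocyte markers, at 26806 to 46106 CPM, against 5665 to 12410 CPM in the other 8 libraries. All 10 hepatocyte markers were detected in every library. In bulk RNA, fewer cells of a type and less RNA per cell cannot be told apart.

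The region upstream of the transcription start is shown for Il6ra and for Socs3, because they lay on opposite sides of control. Both are from the RefSeq table for GRCm38.p6, 250 bases up to the base before the annotated start, written 5′ to 3′ in the direction of the gene. Both genes are on the minus strand, at chr3:89913197-89913446 for the Il6ra stretch and chr11:117969367-117969616 for the Socs3 stretch. Capitals mark the match to the STAT motif.
Il6ra: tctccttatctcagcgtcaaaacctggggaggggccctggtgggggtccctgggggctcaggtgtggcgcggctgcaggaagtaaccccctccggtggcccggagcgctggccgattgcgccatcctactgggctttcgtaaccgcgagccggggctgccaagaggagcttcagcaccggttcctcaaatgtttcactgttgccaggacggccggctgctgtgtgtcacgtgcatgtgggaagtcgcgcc
Socs3: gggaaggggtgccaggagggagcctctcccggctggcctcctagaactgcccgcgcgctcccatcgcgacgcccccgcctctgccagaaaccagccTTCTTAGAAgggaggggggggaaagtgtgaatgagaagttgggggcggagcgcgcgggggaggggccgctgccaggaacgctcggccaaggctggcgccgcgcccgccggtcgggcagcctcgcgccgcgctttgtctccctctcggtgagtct
Both strands were searched for the STAT motif TTCNNNGAA, the C/EBP motif TTGCNNAA and the AP-1 motif TGANTCA. The Socs3 stretch held 1 STAT match, TTCTTAGAA, at positions -154 to -146 from the annotated start, and it overlapped with neither of the other motifs. The Il6ra stretch held none of the 3 motifs. Of 27025 windows of this length in the table, 7.18% held the STAT motif, 9.55% the C/EBP motif and 6.87% the AP-1 motif. The RefSeq start of Socs3 lies 180 bases from the nearest start in the GENCODE M21 annotation of the same build, whereas the Il6ra start coincides with one. Windows for 9 of the 10 genes were matched, and no other gene among them held any of these motifs. A match is a description of letters and not of binding.

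The cytokines that start the pathway were near the detection limit. Il6 itself had 18 counts over all 12 libraries together, Il11 had 21, Lif 34, Osm 17 and Il27 30, and none of these 5 was tested. Of 9 ligand genes, 4 passed the filter. Clcf1, a ligand of the ciliary neurotrophic factor receptor, was lower at all 3 doses, with log2 fold changes of -0.80 ± 0.41, -0.67 ± 0.41 and -1.06 ± 0.41 at 25, 50 and 100 mg/kg (edgeR adjusted p = 0.823, 0.997 and 0.377).

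Il6ra, the IL-6 binding chain, (ENSMUSG00000027947) was the member furthest from control at 50 and 100 mg/kg, while at 25 mg/kg Socs3 was further. It stood at 7.98, 7.72 and 9.63 CPM in the control livers. At 25 mg/kg it had 9.95, 11.7 and 23.5 CPM, at 50 mg/kg 28.9, 26.3 and 28.1 CPM, and at 100 mg/kg 19.4, 21.0 and 30.3 CPM. All 9 curcumin libraries lay above all 3 control libraries, a pattern that 1.06% of all tested genes had, and at 25 mg/kg replicates 1 and 2 were only just above. The log2 fold change was 0.84 ± 0.32 at 25 mg/kg, 1.72 ± 0.32 at 50 mg/kg and 1.48 ± 0.32 at 100 mg/kg (edgeR adjusted p = 0.800, 0.353 and 0.320). In folds this was 1.79, 3.29 and 2.79. By p-value Il6ra stood at rank 5 of all tested genes at 50 mg/kg and at rank 18 at 100 mg/kg. DESeq2 called it at 50 mg/kg (adjusted p = 0.000375) and 100 mg/kg (adjusted p = 0.00526), and the limma test with library weights did so too (adjusted p = 0.0192 and 0.0203). Over all alternatives the adjusted p ran from 0.000375 to 1 at 50 mg/kg and from 0.00526 to 0.598 at 100 mg/kg. The 3 doses were not told apart, with an edgeR adjusted p = 0.986 for the difference among them. At 25 mg/kg the fold change rested on 1 liver and was 0.35 on the log2 scale without low replicate 3. With the mitochondrial share as a covariate, the 3 values were 0.70, 1.60 and 1.22.

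Il6st encodes gp130, the chain that all receptors of the family share. It had 17.2, 21.3 and 20.7 CPM in control livers, 16.7, 17.8 and 20.7 CPM at 25 mg/kg, 18.8, 19.5 and 14.9 CPM at 50 mg/kg and 26.4, 13.3 and 22.7 CPM at 100 mg/kg. All dose groups overlapped with control, and the spread at 100 mg/kg took in the lowest and the highest of the 12 livers. The log2 fold changes were -0.10 ± 0.27, -0.15 ± 0.27 and 0.08 ± 0.27 at 25, 50 and 100 mg/kg, and their signs changed with the scaling, as given for all genes in the closing section.

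The amounts of the receptor chains relative to one another were read per kilobase of exon, which is the scale on which genes can be compared. Il6ra reached 1.74 ± 0.85, 3.21 ± 0.16 and 2.73 ± 0.68 CPM per kb at the 3 rising doses, against 0.977 ± 0.120 CPM per kb in control livers (SD, n = 3 each). Il6st was at 1.66 ± 0.19, 1.60 ± 0.22 and 1.87 ± 0.61 CPM per kb at the same doses, against 1.78 ± 0.20 CPM per kb in control livers. The ratio of Il6ra to Il6st within a library does not depend on how libraries are scaled. It was 0.595, 0.466 and 0.598 in control livers, 0.765, 0.841 and 1.46 at 25 mg/kg, 1.98, 1.73 and 2.42 at 50 mg/kg, and 0.944, 2.03 and 1.72 at 100 mg/kg. Control livers thus had fewer Il6ra than Il6st counts per kilobase in all 3 libraries, and the livers given 50 mg/kg had more in all 3. This ratio was looked at after the values of the genes were known and was not tested.

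**Figure D1:**
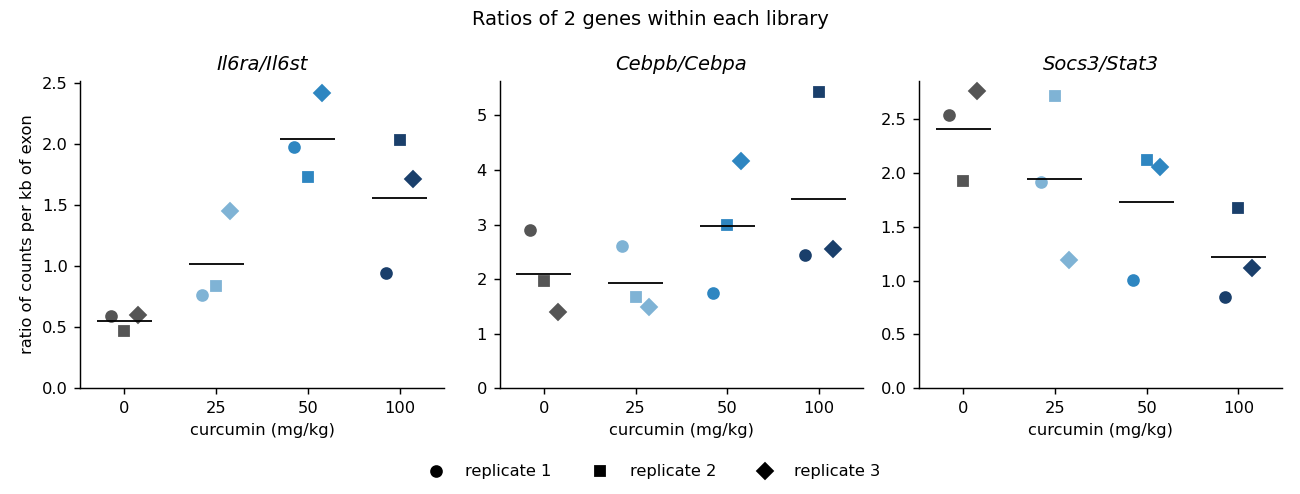
Ratio of 2 genes within each library, in counts per kilobase of exon, against the curcumin dose in mg/kg (0 is CCl4 alone). Symbols are single livers, marked by replicate number, and bars are means of 3; all 9 curcumin livers lie above the 3 control livers for Il6ra/Il6st, and the groups overlap for Cebpb/Cebpa.

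Lifr, the receptor chain for leukaemia inhibitory factor, was the most abundant receptor gene of the set per kilobase, at 10.9 ± 1.57, 12.4 ± 3.42 and 12.2 ± 6.50 CPM per kb at the 3 rising doses, against 14.8 ± 2.99 CPM per kb in control livers (SD, n = 3 each). By library it had 143, 196 and 138 CPM in control livers, 98.6, 131 and 124 CPM at 25 mg/kg, 97.5, 171 and 133 CPM at 50 mg/kg, and 59.8, 200 and 136 CPM at 100 mg/kg. The livers given 25 mg/kg lay below all controls, and those given 100 mg/kg spread to both sides. The log2 fold changes were -0.43 ± 0.42, -0.25 ± 0.41 and -0.27 ± 0.41 at 25, 50 and 100 mg/kg (edgeR adjusted p = 0.891, 0.997 and 0.794). With libraries scaled to their plain totals the last 2 became 0.16 and 0.18, and with the mitochondrial share as a covariate the value at 100 mg/kg became 0.05. Measured from the median of all genes, the values on plain totals were -0.31 at 50 mg/kg and -0.52 at 100 mg/kg.

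Osmr, the receptor chain for oncostatin M, was the scarcest of the receptor genes, at 0.250 ± 0.027, 0.228 ± 0.052 and 0.243 ± 0.061 CPM per kb at the rising doses, against 0.336 ± 0.088 CPM per kb in control livers (SD, n = 3 each). Its libraries held 3.30, 3.63 and 5.28 CPM in control, 3.39, 2.93 and 2.77 CPM at 25 mg/kg, 2.31, 3.47 and 2.49 CPM at 50 mg/kg, and 2.84, 2.26 and 3.72 CPM at 100 mg/kg. Each dose group overlapped with control, and control replicate 3 was the highest of all. The log2 fold changes were -0.43 ± 0.28, -0.56 ± 0.28 and -0.47 ± 0.28 (edgeR adjusted p = 0.851, 0.936 and 0.471), and the last was 0.35 with plain library totals. The median of all genes then stood at 0.71, and measured from it the value was -0.36.

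Of 6 further receptor and sheddase genes, 5 were tested and none passed in either direction. Adam10 and Adam17 encode the proteases that cut the IL-6 receptor from the cell surface. Adam10 had log2 fold changes of -0.08 ± 0.23, 0.25 ± 0.23 and 0.41 ± 0.23 at 25, 50 and 100 mg/kg, and Adam17 had -0.25 ± 0.20, -0.10 ± 0.20 and -0.23 ± 0.20 (edgeR adjusted p of 0.442 or more for both at each dose). Il27ra, the receptor for IL-27, was lower by -1.26 ± 0.37, -1.06 ± 0.36 and -1.23 ± 0.36 on the log2 scale (edgeR adjusted p = 0.764, 0.703 and 0.365). It had 638 counts over the 12 libraries and is named after its values were seen.

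Jak1 encodes the kinase bound to gp130. It had 32.1, 24.6 and 27.8 CPM in control livers, 19.5, 18.3 and 23.7 CPM at 25 mg/kg, 25.9, 29.2 and 26.6 CPM at 50 mg/kg, and 20.1, 27.1 and 26.7 CPM at 100 mg/kg. The livers given 25 mg/kg lay below all controls, and both higher doses overlapped with them. The log2 fold changes were -0.46 ± 0.23, -0.05 ± 0.23 and -0.19 ± 0.23 (edgeR adjusted p = 0.823, 0.997 and 0.726), of which the last 2 became 0.39 and 0.46 with plain library totals. Measured from the median of all genes on that scale, they were -0.07 and -0.25.

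Stat3, the transcription factor of the pathway, had 22.1, 24.6 and 26.0 CPM in control livers. It had 16.1, 13.0 and 16.1 CPM at 25 mg/kg, 14.4, 17.6 and 23.1 CPM at 50 mg/kg, and 18.9, 20.1 and 14.8 CPM at 100 mg/kg. The low and the high group lay wholly below control, and in the medium group replicate 3 lay among the controls. The log2 fold changes were -0.69 ± 0.24, -0.40 ± 0.24 and -0.44 ± 0.24 at 25, 50 and 100 mg/kg (edgeR adjusted p = 0.800, 0.997 and 0.436). Plain library totals turned the values at 50 and 100 mg/kg to 0.01 and 0.21, where the median of all genes stood at 0.47 and 0.71. Measured from that median they were -0.46 and -0.49. Stat3 shares exon sequence with Stat5a on the opposite strand, and since the counting is not stated to use strand, reads from the overlap cannot be assigned to one of them. Stat5a had 4944 counts in all against 13392 for Stat3.

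Of the 9 other JAK and STAT genes, 7, 6 and 8 were lower at 25, 50 and 100 mg/kg, with median log2 fold changes of -0.16, -0.11 and -0.34, against 0.01, 0.02 and 0.03 for all tested genes. With the doses averaged 9 were lower, with a median of -0.18 against 0.01 for all tested genes, of which 50.9% lay above control. None passed the test. Their summed level was lowest in high replicates 1 and 3, low replicate 3 and medium replicate 1, at 106 to 167 CPM. These livers also had the lowest mitochondrial shares. High replicate 2 had the highest sum, 304 CPM, against 174 to 259 CPM in control livers. The part of the share in this list was not tested. Jak3, a kinase of lymphocyte cytokine receptors, was lower at 25 and 100 mg/kg but not at 50 mg/kg. Its values were -0.90 ± 0.33, 0.06 ± 0.32 and -0.45 ± 0.32 at 25, 50 and 100 mg/kg (edgeR adjusted p = 0.800, 0.997 and 0.543).

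Socs3 (ENSMUSG00000053113), the inhibitor that STAT3 induces, was the member that lay furthest below control. It had 17.0, 14.35 and 21.8 CPM in control livers. At 25 mg/kg it had 9.36, 10.7 and 5.80 CPM, at 50 mg/kg 4.37, 11.3 and 14.44 CPM, and at 100 mg/kg 4.87, 10.2 and 5.01 CPM. The low and high groups lay below all 3 controls, and medium replicate 3 just reached the lowest of them. The log2 fold change was -1.04 ± 0.43 at 25 mg/kg, -0.82 ± 0.42 at 50 mg/kg and -1.41 ± 0.43 at 100 mg/kg (edgeR adjusted p = 0.810, 0.953 and 0.371). Expressed as a ratio, Socs3 was at 0.486, 0.566 and 0.377 of control. The limma test with library weights called it at 100 mg/kg, with -1.69 on the log2 scale and adjusted p = 0.0403, while DESeq2 did not, and over all alternatives the adjusted p ran from 0.0403 to 0.721. At 50 mg/kg the value depended on single livers, and it was -0.46 without medium replicate 1 and -1.18 without medium replicate 3.

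Socs3 also moved with the mitochondrial share. Over the 12 libraries, its log2 CPM correlated with that share with Pearson r = 0.79 (permutation test, adjusted p = 0.0225 over 10 genes) and Spearman rho = 0.59 (adjusted p = 0.193). Without high replicates 1 and 3, the libraries farthest from the median share, r was 0.71 (permutation test, adjusted p = 0.226). Within groups, on deviations from the group means, r was 0.79 (exact permutation test, adjusted p = 0.0386). On counts outside mitochondrial genes it was 0.60 and did not pass (permutation test, adjusted p = 0.074). The totals of that scale still held the nuclear copies of mitochondrial genes, whose share was also lowest in high replicate 1. The scale is therefore not free of mitochondria-like sequence, here and wherever it is used below. With the share as a covariate, the log2 fold changes of Socs3 became -0.89, -0.61 and -0.81 at 25, 50 and 100 mg/kg. In the plot of level against mitochondrial share, all controls lie at shares of 58.6% or more. At such shares, low replicates 1 and 2, medium replicate 3 and high replicate 2 had 9.36, 10.7, 14.44 and 10.2 CPM of Socs3. The controls had 14.35 to 21.8 CPM, so medium replicate 3 lay within their range. The part of the share in the Socs3 results was not tested beyond these fits and values.

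**Figure D2:**
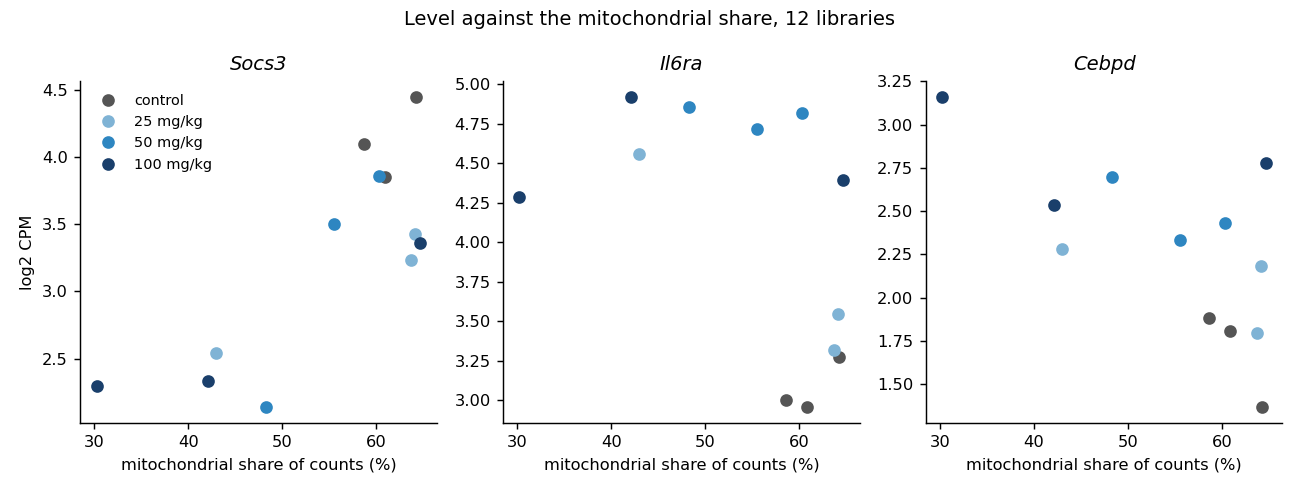
Level of Socs3, Il6ra and Cebpd (log2 CPM) against the percent of counts on mitochondrially encoded genes, 1 point per liver, coloured by group. The 4 livers with the lowest shares, all from curcumin groups, have the lowest Socs3 levels. The Il6ra levels of all 9 curcumin livers lie above those of the controls, which have shares of 58.6% to 64.2% only.

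Of the other genes of the correlation family, Il6st had r = -0.73 with the share (permutation test, adjusted p = 0.0300; rho = -0.64, adjusted p = 0.193). Without the same 2 libraries r was -0.43 (permutation test, adjusted p = 0.429), and on deviations from the group means it was -0.85 (exact permutation test, p = 0.0201, adjusted p = 0.1003). On counts outside mitochondrial genes it was -0.82 (permutation test, adjusted p = 0.0043). Of these relations, those of Socs3 and Il6st both lost their call without high replicates 1 and 3. The remaining 8 genes did not pass over the 12 libraries, with r between -0.65 for Cebpd and 0.65 for Lifr. On counts outside mitochondrial genes, with the nuclear copies kept in the totals, Cebpa (r = -0.83) and Cebpd (r = -0.80) passed (permutation test, adjusted p = 0.0043 for both). Il6ra had r = -0.52 (permutation test, adjusted p = 0.144).

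Other brakes on the pathway showed no common direction. Of 15 further SOCS, PIAS and phosphatase genes, 5 were higher and 10 lower with the doses averaged, with a median log2 fold change of -0.09 against 0.01 for all tested genes. Cish, a SOCS family member induced by STAT5, was at 0.84 ± 0.32, 0.40 ± 0.32 and 0.21 ± 0.32 at 25, 50 and 100 mg/kg, and all 3 low livers lay above the controls (edgeR adjusted p = 0.800, 0.997 and 0.792). Ptpn6, the SHP-1 phosphatase of blood cells, was at -0.93 ± 0.33, -0.65 ± 0.33 and -0.79 ± 0.33 (edgeR adjusted p = 0.800, 0.936 and 0.383). Ptpn11, the SHP-2 phosphatase that docks on gp130, was at 0.24 ± 0.20, 0.25 ± 0.20 and 0.49 ± 0.20 (edgeR adjusted p = 0.876, 0.997 and 0.381), and all 9 curcumin livers lay above all controls, as did 1.06% of genes.

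Cebpd (ENSMUSG00000071637), a C/EBP factor of the acute phase response, was the second gene of the set that stood above control. It had 3.65, 3.46 and 2.54 CPM in control livers, 3.43, 4.50 and 4.82 CPM at 25 mg/kg, 6.44, 5.004 and 5.36 CPM at 50 mg/kg, and 8.92, 6.81 and 5.75 CPM at 100 mg/kg. The medium and high groups lay wholly above control, and in the low group replicate 1 lay among the controls. The log2 fold change was 0.41 ± 0.25 at 25 mg/kg, 0.80 ± 0.25 at 50 mg/kg and 1.16 ± 0.25 at 100 mg/kg (edgeR adjusted p = 0.842, 0.635 and 0.320). The slope over the range of 100 mg/kg was 1.14 ± 0.23 on the log2 scale (edgeR adjusted p = 0.291), rank 8 of all tested genes by p. DESeq2 called the slope (adjusted p = 0.00539) and the high group (adjusted p = 0.00818). Over all alternatives the adjusted p ran from 0.00539 to 0.691 for the slope and from 0.00818 to 0.598 at 100 mg/kg. With the mitochondrial share as a covariate, the values were 0.35, 0.72 and 0.96. The exons of Cebpd overlap those of Spidr on the opposite strand, which had 247 counts in all against 3877 for Cebpd.

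Cebpb, whose product C/EBPβ was known as nuclear factor IL-6, was the most abundant of the 10 genes per kilobase. It was at 75.2 ± 8.06, 99.1 ± 19.5 and 121 ± 26.2 CPM per kb at the 3 rising doses, against 79.1 ± 23.6 CPM per kb in control livers (SD, n = 3 each). By library it had 160, 98.0 and 98.8 CPM in control livers, 127, 106 and 106 CPM at 25 mg/kg, 126, 139 and 182 CPM at 50 mg/kg, and 189, 216 and 139 CPM at 100 mg/kg. Every dose group overlapped with control, because control replicate 1 was at the level of the medium group. The log2 fold changes were -0.07 ± 0.32, 0.33 ± 0.32 and 0.61 ± 0.33 (edgeR adjusted p = 0.974, 0.997 and 0.432), and the first was 0.02 in the limma test with library weights. The slope was 0.68 ± 0.29 over 100 mg/kg (edgeR adjusted p = 0.434). Tmem189, which overlaps Cebpb on the opposite strand, had 2549 counts in all against 101233 for Cebpb.

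Cebpa, the factor of mature hepatocytes, had 96.7, 87.3 and 124 CPM in control livers, 85.3, 111 and 125 CPM at 25 mg/kg, 126, 81.4 and 76.6 CPM at 50 mg/kg, and 136, 69.8 and 95.2 CPM at 100 mg/kg. All groups overlapped. Its log2 fold changes were 0.06 ± 0.34, -0.12 ± 0.34 and -0.03 ± 0.34 (edgeR adjusted p = 0.977, 0.997 and 0.973), and these small values changed sign with the scaling. Per kilobase, the Cebpb to Cebpa ratio within a library ran from 1.49 to 2.61 at 25 mg/kg, from 1.75 to 4.16 at 50 mg/kg and from 2.44 to 5.43 at 100 mg/kg, against 1.40 to 2.90 in control livers. The groups overlapped, and the ratio was not tested.

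**Figure D3:**
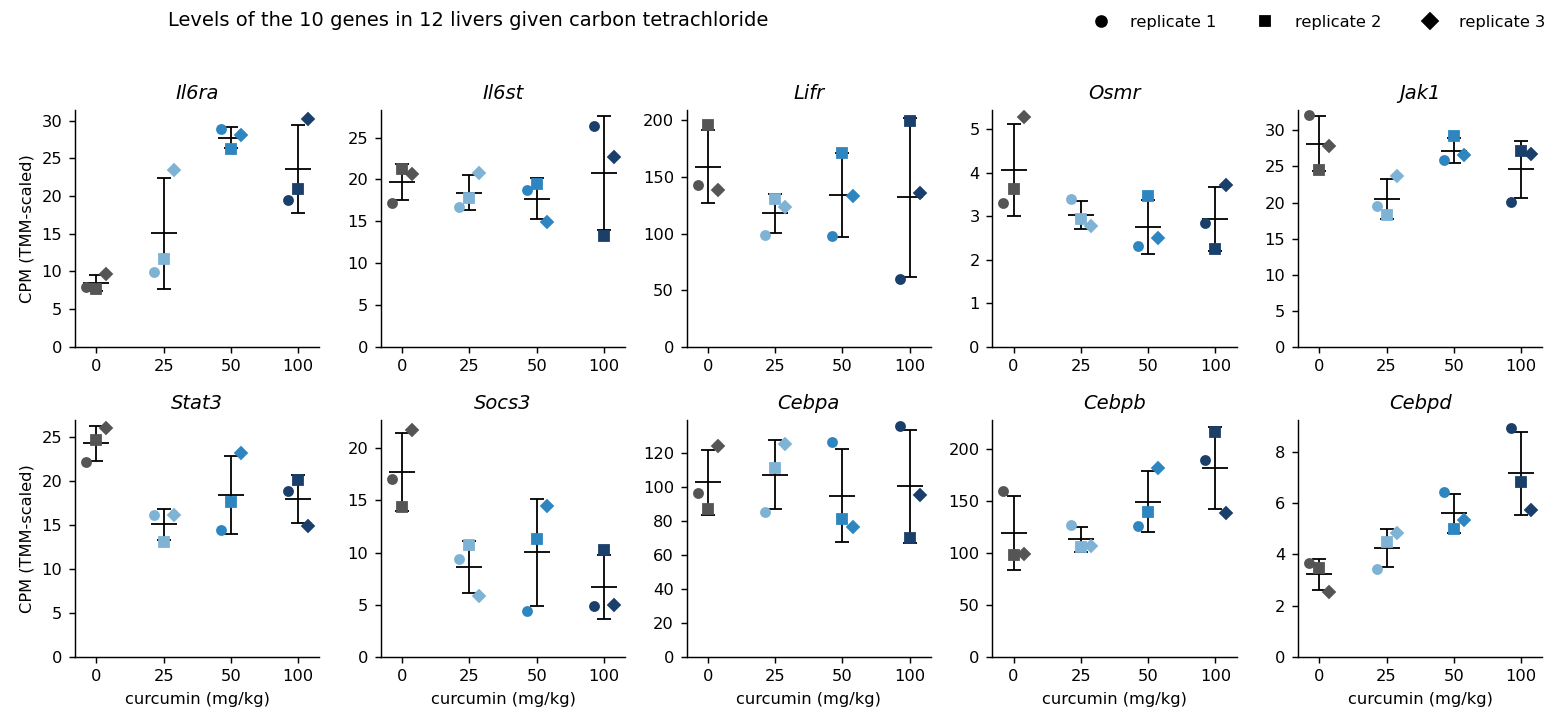
CPM (TMM-scaled) of each gene in each of the 12 livers against the curcumin dose in mg/kg (0 is CCl4 alone). Symbols are single livers, marked by replicate number, and bars give the mean and SD of 3; for Il6ra all curcumin livers lie above the controls, and for Socs3 all but medium replicate 3 lie below them.

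Across the set, 1 of 10 genes lay wholly above control at 25 mg/kg (Il6ra) and 4 lay wholly below (Lifr, Jak1, Stat3 and Socs3), where 7.41% and 6.36% of all tested genes did so. At 50 mg/kg 2 lay above (Il6ra and Cebpd) and 0 below, where 7.61% and 6.38% of all genes did. At 100 mg/kg 2 lay above (Il6ra and Cebpd) and 2 below (Stat3 and Socs3), where 6.47% and 6.52% of all genes did. The 3 comparisons share their control livers, so they are not independent of each other. The median log2 fold change of the 10 genes was -0.26, -0.14 and -0.11 at the rising doses, against 0.01, 0.02 and 0.03 for all tested genes. Plain library totals gave -0.16, 0.35 and 0.63, where the median of all genes was 0.11, 0.47 and 0.71.

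**Figure D4:**
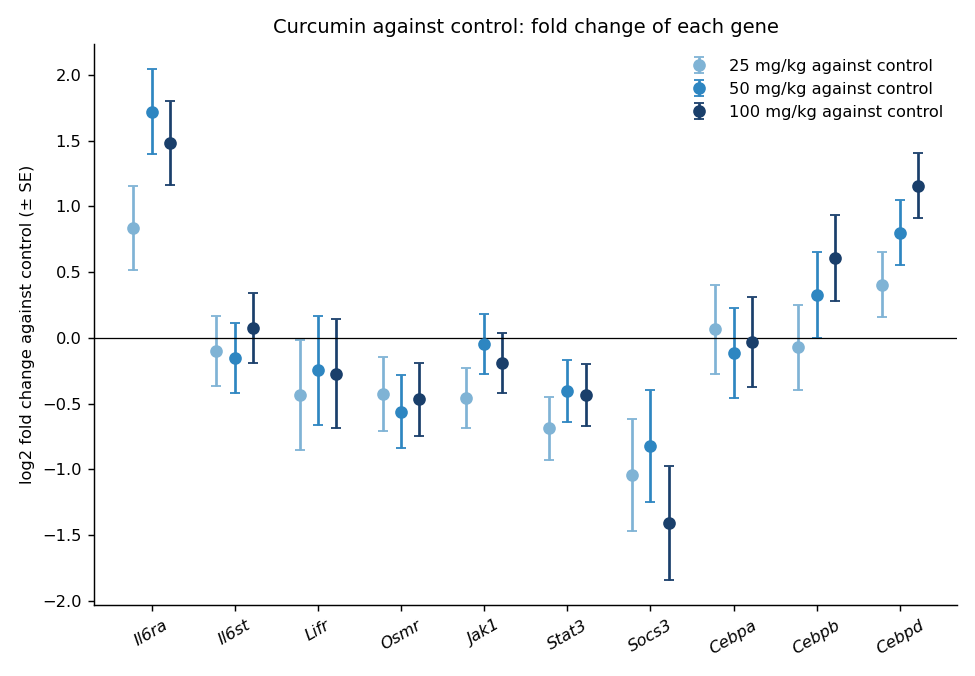
Log2 fold change against control with its standard error (edgeR) for the 10 genes, with the 3 doses side by side from 25 to 100 mg/kg. Il6ra lies above 0 at all doses, Cebpd runs from 0.41 to 1.16, Socs3 lies below 0 at all doses, and no value passed the adjusted test.

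Of 7 other C/EBP family genes and partners, 2 were higher and 5 lower with the doses averaged, and 0 passed the edgeR test. Trib3, a stress-induced pseudokinase, had log2 fold changes of -1.12 ± 0.44, -0.41 ± 0.43 and -0.44 ± 0.43 at 25, 50 and 100 mg/kg, and Ddit3, the C/EBP family member CHOP, had -0.38 ± 0.41, -0.35 ± 0.41 and -0.32 ± 0.41 (edgeR adjusted p of 0.660 or more for both at each dose). Cebpg was at 0.09 ± 0.21, -0.10 ± 0.21 and -0.13 ± 0.21.

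The groups of genes downstream did not all lie on one side of control, and for some of them the side changed with the dose or the scaling. Of 25 tested acute phase genes listed as responding to STAT3, 9 were higher and 16 lower at 25 mg/kg, 18 were higher and 7 lower at 50 mg/kg, and 23 were higher and 2 lower at 100 mg/kg. Of all tested genes, 51.1%, 51.9% and 52.2% were higher at these doses. Their median log2 fold changes were -0.16, 0.18 and 0.59, against 0.01, 0.02 and 0.03 for all tested genes, and none passed the test. Serpina3m, a serine protease inhibitor from a cluster of similar genes that may share reads, was at 0.86 ± 0.38, 1.35 ± 0.38 and 1.42 ± 0.38 (edgeR adjusted p = 0.814, 0.596 and 0.352). Saa4 is on this list although it is the constitutive serum amyloid, so its level need not follow STAT3. It was at 0.48 ± 0.48, 1.81 ± 0.49 and 1.13 ± 0.48 (edgeR adjusted p = 0.90, 0.540 and 0.383). The inducible serum amyloid Saa2 was at -2.20 ± 0.93, -0.45 ± 0.86 and 0.07 ± 0.86 (edgeR adjusted p = 0.813, 0.997 and 0.977). Saa1 and Saa2 are near copies of each other, so their reads may have been divided in the counting and the values of Saa2 are uncertain. Itih3, an inter-alpha-trypsin inhibitor chain, was at -0.72 ± 0.35, -0.32 ± 0.34 and -0.81 ± 0.35 (edgeR adjusted p = 0.822, 0.997 and 0.383).

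The acute phase counts moved with single livers and with the mitochondrial share at each dose. At 25 mg/kg 2 genes were higher and 23 lower without low replicate 3, with a median of -0.81, and the median was -0.37 without control replicate 3. It turned to 0.015 without low replicate 1, 0.10 without low replicate 2, 0.0035 without control replicate 1 and 0.043 without control replicate 2. At 50 mg/kg 10 were higher and 15 lower without control replicate 3, with a median of -0.15, and the median was -0.0049 without medium replicate 1. It was 0.34 without medium replicate 2, 0.36 without control replicate 1 and 0.30 without control replicate 2. At 100 mg/kg 14 were higher and 11 lower without high replicate 1, the liver with the lowest mitochondrial share, with a median of 0.11, and the median was 0.38 without control replicate 3. With the mitochondrial share as a covariate, 4, 9 and 6 of 25 were higher at the 3 doses, with medians of -0.57, -0.22 and -0.55. The limma test with library weights gave a median of -0.09 at 50 mg/kg. Plain library totals gave a median of 0.12 at 25 mg/kg, where that of all genes was 0.11. Totals without mitochondrial genes and their nuclear copies gave 15 higher and 10 lower at 100 mg/kg, with a median of 0.16, where that of all genes was -0.24. The part of the share in these results was not tested beyond these fits.

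The 12 other genes known to respond to STAT3, which encode proteins that are mostly not secreted, lay on the lower side. At 25, 50 and 100 mg/kg 8, 9 and 8 of them were lower, with medians of -0.23, -0.32 and -0.34, and plain library totals gave 0.01, 0.13 and 0.43 where the median of all genes was 0.11, 0.47 and 0.71. Pim1, a survival kinase, was at -1.07 ± 0.26, -0.80 ± 0.26 and -1.37 ± 0.26 (edgeR adjusted p = 0.764, 0.671 and 0.320). Junb, an AP-1 subunit, was at -1.57 ± 0.37, -1.82 ± 0.37 and -1.37 ± 0.36 (edgeR adjusted p = 0.764, 0.353 and 0.352). Icam1, an adhesion molecule, was at -1.02 ± 0.33, -1.11 ± 0.32 and -1.02 ± 0.32 (edgeR adjusted p = 0.780, 0.604 and 0.371), and Bcl3, a partner of NF-κB, at -0.58 ± 0.33, -1.27 ± 0.33 and -1.05 ± 0.33 (edgeR adjusted p = 0.830, 0.502 and 0.371). Bcl2l1, which encodes the survival factor BCL-XL, was on the higher side at 0.42 ± 0.29, 0.64 ± 0.29 and 0.76 ± 0.29 (edgeR adjusted p = 0.860, 0.892 and 0.377).

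Of 16 liver genes that C/EBP factors are known to activate, 14, 13 and 14 were higher at 25, 50 and 100 mg/kg, with medians of 0.39, 0.36 and 0.71, and 0 passed the edgeR test. Of these 16 genes, 6 are also on the hepatocyte marker list. Gpt2, an alanine aminotransferase, was at 0.48 ± 0.32, 1.16 ± 0.32 and 1.01 ± 0.32 (edgeR adjusted p = 0.852, 0.567 and 0.371). Ttr, the transthyretin gene, was at 1.44 ± 1.05, 1.05 ± 1.04 and 2.60 ± 1.09, and Cyp2e1, the enzyme that activates CCl4, was at 0.46 ± 0.46, 0.70 ± 0.46 and 1.11 ± 0.47 (edgeR adjusted p of 0.383 or more for both at each dose). With the mitochondrial share as a covariate, 7 of 16 were higher and 9 lower at 100 mg/kg, with a median of -0.02. At 50 mg/kg the count was 8 higher and 8 lower both with that covariate (median 0.06) and without medium replicate 1 (median 0.11), and without control replicate 1 the median was 0.72. At 25 mg/kg 9 were higher and 7 lower without low replicate 3, with a median of 0.11, and the median was 0.13 with the covariate, 0.20 without control replicate 2 and 0.25 without control replicate 3.

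**Figure D5:**
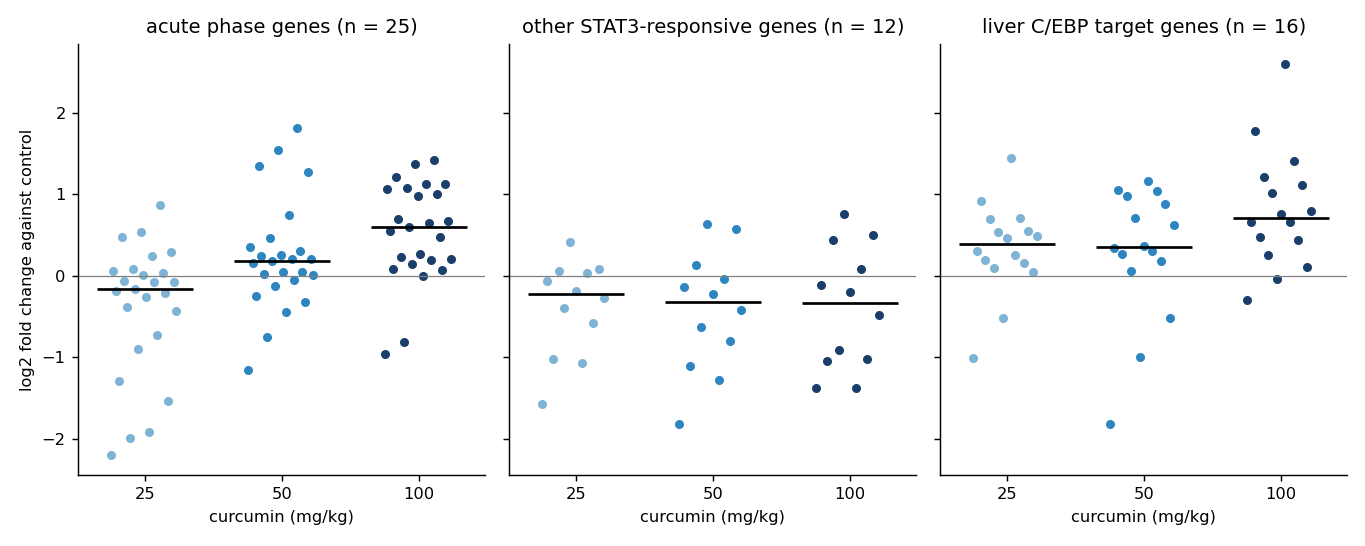
Log2 fold change against control of the tested genes of 3 groups listed as downstream of STAT3 or C/EBP factors, at curcumin doses of 25, 50 and 100 mg/kg. Points are genes and bars are medians; the acute phase median runs from -0.16 to 0.59 with dose, and the median of the other STAT3-responsive genes is below 0 at each dose.

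Cell type markers were also compared with control, and no marker passed the edgeR test at any dose. All 10 hepatocyte markers were higher at each dose, with median log2 fold changes of 0.54, 0.75 and 1.01 at 25, 50 and 100 mg/kg. Their summed level was 5665 to 34236, 7981 to 26806 and 5803 to 46106 CPM at the 3 doses, against 6111 to 12410 CPM in control livers. Among the curcumin livers 5 had hepatocyte sums below that of the highest control. These were low replicates 1 and 2 (6813 and 5665 CPM), medium replicates 2 and 3 (9951 and 7981 CPM) and high replicate 2 (5803 CPM). In that order they had 9.95, 11.7, 26.3, 28.1 and 21.0 CPM of Il6ra, against 7.72 to 9.63 CPM in the controls. Their Cebpd levels were 3.43, 4.50, 5.004, 5.36 and 6.81 CPM, against 2.54 to 3.65 CPM in the controls. The low livers among them were thus close to the controls in Il6ra, and low replicate 1 lay among the controls in Cebpd. Beyond these values, the part of hepatocyte content in the Il6ra and Cebpd results was not tested.

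Of 10 Kupffer cell markers, genes of the resident liver macrophage, 10, 10 and 7 were lower at 25, 50 and 100 mg/kg. Their summed level was 61.2 to 78.6, 64.8 to 74.6 and 82.5 to 109 CPM at the 3 doses, against 79.8 to 196 CPM in control livers. All 7 tested neutrophil markers were lower at each dose, at 6.39 to 7.71, 4.65 to 9.17 and 6.09 to 7.40 CPM in sum, against 10.4 to 39.96 CPM in control livers. Of the defining neutrophil genes, Elane had 0 counts in every library and Ly6g had 9 in all. Control replicate 2 had the highest Kupffer and neutrophil sums and the lowest Socs3 level of the controls. Without that liver, the log2 fold change of Socs3 at 100 mg/kg was -1.54. The part of these cells in the Socs3, Stat3 and Junb results was not tested.

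Stellate cell and fibroblast markers were higher at 100 mg/kg in 9 of 10 cases, with a summed level of 51.6 to 259 CPM against 55.2 to 71.5 CPM in control livers, and high replicate 1 was the highest. That liver also had the highest Cebpd level, 8.92 CPM. Without it the log2 fold change of Cebpd at 100 mg/kg was 0.97. High replicate 3, which stayed in that fit, had a stellate and fibroblast sum of 153 CPM. The part of these cells in the Cebpd results was not tested. Of 8 B and plasma cell markers 8, 7 and 5 were lower at the rising doses, of 8 T and NK cell markers 6 were lower at each dose, and of 8 sinusoidal endothelial markers 7, 6 and 6 were higher. The T and NK cell markers were scarce. They summed to 3.07 to 4.88, 3.66 to 4.79 and 2.63 to 4.44 CPM at the rising doses, against 2.79 to 7.51 CPM in control livers. Control replicate 2 had the highest sum of these markers and of the B and plasma cell markers. Of 8 recruited macrophage markers 6, 6 and 3 were lower, with median log2 fold changes of -0.28, -0.33 and 0.39. Of 6 tested cholangiocyte markers 5, 5 and 2 were lower, with medians of -0.37, -0.48 and 0.68. Both lists thus lay mostly above control at 100 mg/kg, and they share the gene Spp1.

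Across all 12 livers, the genes whose pattern was most like that of Il6ra, by Pearson r of log2 CPM among 9062 genes searched, were Lpin1 (r = 0.97), St3gal5 (0.94), Fkbp5 (0.94), Gpt2 (0.94) and Wbp1l (0.94). The genes most like Socs3 were Mapre3 (0.94), Cecr2 (0.93), Arhgap17 (0.92), Abl1 (0.91) and Slx1b (0.91). These are descriptions over libraries that share their scaling and an uneven mitochondrial share. Lpin1, a phosphatidate phosphatase, had 17.2 to 25.2 CPM in control livers, 26.4 to 174 CPM at 25 mg/kg, 131 to 141 CPM at 50 mg/kg and 79.996 to 193 CPM at 100 mg/kg.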

How the data were processed

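Whole liver total RNA was extracted with TRIzol and made into libraries with a Hieff kit, per the labels' protocols. For 12 libraries the authors deposited raw counts per gene in 1 table, and 0 columns were left unmapped. The submitters' processing notes name StringTie 2.2.1, STAR 2.7.10b and fastp 0.23.4 with the mm39 build. The counting tool and its strand setting are not given in the sources used here. Symbols were matched for 52073 of 56923 IDs (91.5%). Gene lengths are union exons of GENCODE M21, an annotation of an earlier build.

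Tests used edgeR 4.0.16 in R 4.3.3: filterByExpr, TMM scaling, robust quasi-likelihood fits over all 12 libraries, and Benjamini-Hochberg adjustment over 16839 genes with a threshold of 0.05. CPM are TMM-scaled. Log2 CPM for correlations use a prior count of 2, with 100000 permutations over libraries, or all 1296 rearrangements within groups. Alternatives were DESeq2 1.42.0, limma 3.58.1 with voom weights, other scalings, no filter, a mitochondrial covariate, a replicate block, and leaving out each library. The tests were tried on simulated counts. The genes and lists were chosen with earlier results of these data known. From each list, up to 3 genes with the smallest p per comparison were named. The labels give the samples as biological replicates of a group.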

Additional observations from a re-analysis of the deposited data

How the results depend on the processing

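Il6ra, Cebpd and Socs3 kept their direction in each comparison under all 20 or 21 alternatives. The edgeR counts of genes called moved from 0 under DESeq2 (42 at 25 mg/kg, 89 at 50 mg/kg, 172 at 100 mg/kg, 64 for the slope, 16 among the doses, 165 with the doses averaged), under limma with library weights (35 at 50 mg/kg, 256 at 100 mg/kg, 12 among the doses, 32 averaged), in fits of only the groups compared (1 at 25 mg/kg, 8 at 50 mg/kg, where Il6ra had an adjusted p = 0.0325) and without a filter (3 averaged). Leaving out single libraries gave 0 to 2 genes at 25 mg/kg, 0 to 4 among the doses and 0 to 1 averaged, and no gene of the set was called. Beside the calls given above, DESeq2 called Il6ra (adjusted p = 0.00077) and Cebpd (0.0496) with the doses averaged, and limma called Il6ra (0.0258).

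Scaling to plain totals moved the median of all genes by 0.11, 0.47 and 0.71 at 25, 50 and 100 mg/kg (0.42 averaged, 0.75 for the slope). Totals without mitochondrial genes and their nuclear copies moved it by -0.14, -0.08 and -0.24. Plain totals changed the sign of Il6st (0.061 at 25 mg/kg, 0.31 at 50 mg/kg, 0.43 averaged), Lifr (0.16 at 50, 0.18 at 100, 0.0018 averaged, slope 0.31), Osmr (0.35 at 100, slope 0.45), Jak1 (0.39 at 50, 0.46 at 100, 0.19 averaged, slope 0.60), Stat3 (0.008 at 50, 0.21 at 100, slope 0.38) and Cebpa (0.40 at 50, 0.80 at 100, 0.49 averaged, slope 0.78). Totals without mitochondrial genes and their nuclear copies did so for Il6st (-0.28 at 100, slope -0.23) and Cebpa (-0.10 at 25). The mitochondrial covariate did so for Il6st (-0.34 at 100, slope -0.32), Lifr (0.049 at 100, slope 0.15) and Cebpa (-0.058 at 25). The limma test gave Jak1 0.0015 at 50 and a slope of 0.030, Cebpa -0.011 and Cebpb 0.018 at 25, and the unfiltered fit gave Cebpa 0.0066 at 100.

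Single libraries left out gave ranges across 0 for Il6st (-0.13 to 0.31 at 100 mg/kg, -0.15 to 0.020 averaged, slope -0.13 to 0.29), Lifr (-0.70 to 0.077 at 100, slope -0.60 to 0.13), Jak1 (-0.14 to 0.054 at 50, slope -0.14 to 0.058), Cebpa (-0.070 to 0.22 at 25, -0.38 to 0.043 at 50, -0.31 to 0.17 at 100, -0.13 to 0.13 averaged, slope -0.35 to 0.11) and Cebpb (-0.19 to 0.20 at 25).

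In place of 2 of 10 correlations with the mitochondrial share, 0 passed without the farthest 2 libraries and 1 on deviations from group means. Signs changed for Osmr (r = -0.31 on counts outside mitochondrial genes, -0.075 on deviations), Jak1 (-0.38 on those counts, -0.15 without the 2 libraries), Stat3 (-0.24 on those counts) and Cebpb (0.20 without the 2 libraries, 0.30 on deviations). On those counts Cebpa, Cebpd and Il6st passed and Socs3 did not, and on the deviations Socs3 passed and Il6st did not. For pairs of genes, 5 of 45 passed on those counts in place of 0. Those counts keep the nuclear copies of mitochondrial genes in the totals, unlike the totals used for the fold changes. The causes were not tested. The replicate block left 0 genes called in all comparisons. Same-numbered libraries deviated together with r of only -0.17 to 0.14, which gave no sign of pairing by number. These values cannot exclude such pairing, because deviations within groups this small depend on one another.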

Other observations

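The 10 genes were also compared with one another across the 12 livers. None of the 45 pairs passed after adjustment (permutation test). Several pairs were about equally close. Il6ra and Cebpd had Pearson r = 0.74 (permutation test, p = 0.00658, adjusted p = 0.103) and Spearman rho = 0.69 (adjusted p = 0.183), Socs3 and Cebpd had r = -0.74 and rho = -0.64, and Osmr and Cebpd had r = -0.73 and rho = -0.63. By rank the closest pair was Stat3 and Socs3, with rho = 0.73 (permutation test, p = 0.00981, adjusted p = 0.183) and r = 0.71. For Il6ra and Cebpd, without control replicates 1 and 2, the libraries farthest from the median of Il6ra, r was 0.69, and on deviations from the group means it was 0.00 (exact permutation test, p = 0.996), so the relation did not hold within groups. On counts outside mitochondrial genes, with the nuclear copies kept in the totals, r was 0.85 (permutation test, adjusted p = 0.0160). The other pairs named also moved with the setting. Osmr and Cebpd had r = 0.004 on those counts and -0.72 on the deviations. Socs3 and Cebpd had r = -0.58 and -0.48 in the same order, and Stat3 and Socs3 had 0.52 and 0.59.

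Low replicate 3 stood apart from its group in several of these genes. It had 23.5 CPM of Il6ra, against 9.95 and 11.7 CPM in the other low livers, and 5.80 CPM of Socs3, against 9.36 and 10.7 CPM in them. Its mitochondrial share was 43.0%, against 63.7% and 64.1%, and its hepatocyte marker sum was 34236 CPM, against 6813 and 5665 CPM. No cause for this was tested.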
